A study of Mus musculus with 23 samples.

Results

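Solute carriers are the membrane proteins, named SLC, that move amino acids, sugars, metals, nucleosides, anions and vitamins into and out of cells and organelles. The genes described here are those named Slc, a family number, the letter a and a member number that were expressed in spleen and bone marrow macrophages of mice. Members were chosen by their level. A gene was a member if its deposited normalised read count was at least 10 in at least 6 of the 12 libraries of the first deposited table and if the second table also listed it. Slc40a1, Slc11a1, Slc11a2, Slc48a1, Slc7a11 and Slc4a1 were left out by name. This gave 177 members among the 22524 genes of the first table, of 340 rows with such a name. The rule used levels over all 12 libraries and no difference between groups, and no member met it through libraries of 1 genotype or 1 tissue alone. Just inside the threshold, 6 members (Slc10a1, Slc25a31, Slc25a47, Slc29a2, Slc2a4 and Slc6a20a) reached 10 in exactly 6 libraries, with medians of 7.91 to 12.6. Just outside it, Slc25a43, Slc27a3, Slc7a15 and Slc7a3 reached 10 in 5 libraries, with medians of 2.17 to 8.12.

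Messenger RNA was measured in 23 libraries, each from 1000 macrophages collected by flow sorting from C57BL/6 mice and primed at the poly(A) tail. The series concerns the few red pulp and erythroblastic island macrophage-like cells that remain without Pparg, the gene of the nuclear receptor PPARγ. Red pulp macrophages of the spleen clear aged red cells and recycle their iron, and macrophages of erythroblastic islands in the marrow hold maturing red cell precursors. The 8 groups were spleen macrophages of day 7 pups with the genotype vavCre (3 libraries) and WT (3 libraries), bone marrow macrophages of day 7 pups with the genotype vavCre (3 libraries) and WT (3 libraries), spleen macrophages of day 7 pups labelled Spic_KO (2 libraries) and Spic_WT (3 libraries), and spleen macrophages of adults labelled TAM_CreERT2 (4 libraries) and WT (2 libraries, here TAM WT). Vav-driven Cre acts in blood-forming cells and their progeny, and CreERT2 is a Cre recombinase that tamoxifen switches on. The labels do not name the floxed gene, do not define TAM and give no more precise adult age. No label says whether replicates came from separate animals, so p-values measure the spread between these libraries, which may be technical.

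Carriers work by a few schemes that matter for reading the groups below. Some, such as the SLC7 light chains, reach the cell surface only when bound to a glycoprotein heavy chain, SLC3A2 or SLC3A1, and then exchange 1 amino acid for another. Others are driven by the sodium gradient or by protons, and the SLC25 family shuttles metabolites across the inner mitochondrial membrane. Macrophages are known for their use of arginine, glutamate and cystine carriers, of lactate carriers and of carriers that empty the lysosome after a cell has been engulfed. Members were grouped mostly by family, and each group is named for its main substrates. The amino acid and peptide group holds 33 members, that of anions 27 and that of glucose and other sugars 16. Lipids, vitamins and cofactors have 14, metals 23, the mitochondrial SLC25 family 38, nucleosides and nucleotide sugars 10, and exchangers of sodium, protons or calcium 7. A name need not fit each member, since the amino acid group holds the heavy chains Slc3a1 and Slc3a2. Below, the carriers of a substrate are the members of its group. The remaining 9 fit none of these, and 3 of them (Slc9a3r1, Slc7a6os and Slc4a1ap) bear the name without being carriers.

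The windows around the start sites of 4 members that changed in both vavCre comparisons below are shown here. They are given because the study concerns 2 DNA-binding factors, PPARγ and SPIC. RefSeq gave such windows, 250 bases before to 50 after each annotated start (GRCm38.p6), for 136 of the 177 members, 181 windows in all. Capitals mark every match, on either strand, to AGGTCA (a single copy of the site that nuclear receptors bind), to the repeat of it that PPAR and RXR bind (2 copies of AGGTCA with any 1 base between), GAGGAAGT (a core bound by SPIC and its relative PU.1), TGATGNAA (an element of the amino acid response) and CACGTG (an E-box). The windows lie at chr2:84840073-84840372 on the plus strand for Slc43a1, at chr3:104638414-104638713 on the plus strand for Slc16a1, at chr2:165473148-165473447 on the minus strand for Slc13a3 and at chr15:8710758-8711057 on the minus strand for Slc1a3.
Slc43a1: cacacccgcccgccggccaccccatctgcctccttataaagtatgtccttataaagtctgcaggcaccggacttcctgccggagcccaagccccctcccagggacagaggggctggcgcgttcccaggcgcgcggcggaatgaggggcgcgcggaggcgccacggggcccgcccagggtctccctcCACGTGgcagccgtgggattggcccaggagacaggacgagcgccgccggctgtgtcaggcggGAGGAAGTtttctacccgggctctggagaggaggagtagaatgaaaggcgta
Slc16a1: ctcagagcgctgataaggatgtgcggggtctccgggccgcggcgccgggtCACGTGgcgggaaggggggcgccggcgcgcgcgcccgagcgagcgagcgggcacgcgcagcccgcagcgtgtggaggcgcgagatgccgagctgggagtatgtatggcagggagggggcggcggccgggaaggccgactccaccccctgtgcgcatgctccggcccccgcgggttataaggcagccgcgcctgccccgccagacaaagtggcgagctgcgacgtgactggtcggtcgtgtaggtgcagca
Slc13a3: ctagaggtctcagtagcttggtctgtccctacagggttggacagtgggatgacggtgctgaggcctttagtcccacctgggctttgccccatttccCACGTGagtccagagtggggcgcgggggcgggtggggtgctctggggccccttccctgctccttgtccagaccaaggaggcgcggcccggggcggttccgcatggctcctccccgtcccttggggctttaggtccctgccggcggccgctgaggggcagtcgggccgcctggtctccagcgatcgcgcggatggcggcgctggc
Slc1a3: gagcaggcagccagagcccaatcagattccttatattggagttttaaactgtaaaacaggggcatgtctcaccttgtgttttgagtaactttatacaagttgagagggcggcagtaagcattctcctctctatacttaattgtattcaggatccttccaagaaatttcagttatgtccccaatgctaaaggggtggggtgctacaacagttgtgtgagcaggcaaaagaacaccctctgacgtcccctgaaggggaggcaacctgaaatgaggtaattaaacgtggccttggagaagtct
Slc43a1, Slc16a1 and Slc13a3 each hold CACGTG, and Slc43a1 also holds GAGGAAGT starting 2 bases before the annotated start. The window of Slc1a3 holds none of these letters. Slc43a1, Slc16a1 and Slc13a3 are the only members that changed in both vavCre comparisons and held a match. The windows shown therefore do not represent the members. CACGTG stood in 16.6% of the members' windows (28 members) and in 7.15% of all 32851 windows. Members were chosen by level and the 32851 windows were not, so the 2 shares are not matched for expression. The other motifs were no more frequent in members. The repeat stood in 0% of member windows and 0.0396% of all, and AGGTCA alone, which the repeat contains, in 13.8% and 16.3%. GAGGAAGT stood in 2.21% and 3.20%, and TGATGNAA in 2.76% and 3.97%. A match is a run of letters and not a measured binding site.

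The libraries held 4262498 to 21744079 recovered reads in the first table (spleen and marrow vavCre and WT) and 692898 to 6289375 in the second (Spic and TAM groups), and the tables were scaled separately, so levels are compared within a table only. Spic was read at 931 and 1236 in Spic_KO libraries, against 1993 to 3110 in Spic_WT libraries, so its transcript was lower but still present, and the labels do not say which part of it was removed. Pparg was read at 2496 to 4002 in spleen vavCre, against 1550 to 2124 in spleen WT, and the labels do not say which part of it was removed, so its total checks no label. In Spic_KO libraries Pparg was read at 21.7 and 26.0, against 210.6 to 330.4 in Spic_WT. Spic was read at 8417 to 10010 in spleen vavCre, against 14180 to 16130 in spleen WT, and overlapped between the genotypes in the marrow. The 6 markers of red pulp macrophages summed to 73938 to 93127 in spleen vavCre, against 133586 to 155640 in spleen WT, and to 38079 to 43491 in marrow vavCre, against 83845 to 93272 in marrow WT. The sum of the 8 general macrophage markers ran the other way, at 213777 to 249016 in spleen vavCre, against 147855 to 174464 in spleen WT. In the marrow the sum was 173058 to 188506 in vavCre, against 119632 to 162240 in WT. The 6 B cell markers summed to 1125 to 3161 in spleen vavCre, against 2662 to 6013 in spleen WT, and to 986 to 1899 in marrow vavCre, against 2930 to 9077 in marrow WT. The summed level of 17 erythroid markers was 115845 to 167769 in spleen vavCre, against 226985 to 336228 in spleen WT, and 90126 to 132331 in marrow vavCre, against 228453 to 341073 in marrow WT. The 7 endothelial and stromal markers summed to 686 to 1131 in spleen vavCre, against 1353 to 2436 in spleen WT, and overlapped in the marrow. The 10 neutrophil markers summed to 2544 to 5673 in spleen vavCre, against 352 to 2545 in spleen WT, with overlap in both tissues. None of these markers was at 0 in every library. Replicate pairs correlated across genes at 0.91 or more in the first table, but at 0.786 in Spic_KO, 0.770 to 0.894 in TAM_CreERT2, 0.863 in TAM WT and 0.948 to 0.962 in Spic_WT, and TAM_CreERT2 replicate 2 held the fewest reads.

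The members together made up 1.05 to 1.09% of all signal in spleen vavCre, against 1.15 to 1.17% in spleen WT, and 1.06 to 1.10% in marrow vavCre, against 1.08 to 1.15% in marrow WT. Their mean levels over the 12 libraries ran from 11.1 to 7393 normalised read counts, with a median of 249.9. Levels were also divided by the length of all annotated exons of a gene. Whether reads primed at the poly(A) tail covered whole transcripts was not examined, so the order by this measure is approximate. Highest was Slc25a5 (4491 per kb), an ADP/ATP carrier of the inner mitochondrial membrane, then Slc3a2 (1272), the heavy chain of the amino acid exchangers. Next were the phosphate carrier Slc25a3 (1054), the heart-type ADP/ATP carrier Slc25a4 (1000) and the zinc importer Slc39a1 (994). The mitochondrial oxoglutarate carrier Slc25a11 followed at 669, the taurine carrier Slc6a6 at 599 and the nucleoside carrier Slc29a1 at 587. Within their groups by mean normalised read count, not per length, the leading members also included the chloride cotransporter Slc12a7 (1133), the zinc carrier Slc30a5 (1110) and the glucose 6-phosphate antiporter Slc37a2 (1254). Further leading members were the lysosomal carriers Slc46a3 (960) and Slc29a3 (2046), the vitamin C carrier Slc23a2 (878), the urea carrier Slc14a1 (509) and the scaffold gene Slc9a3r1 (530). The spread between replicates depended on the level. The median coefficient of variation within a group was 12.6% for the 26 members with a mean of at least 1000 and 60.03% for the 48 members with a mean under 100.

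In the spleen, vavCre macrophages had 7 members higher and 13 lower than WT macrophages. Of the 13 that fell, 8 are of the amino acid and peptide group. They include the glutamate carrier Slc1a3, the arginine carrier Slc7a2, the peptide carriers Slc15a2 and Slc15a3, and the exchanger pair Slc3a2 and Slc7a8. The members that rose include the taurine carrier Slc6a6, the neutral amino acid carrier Slc43a2, the zinc importer Slc39a1 and Slc12a9. In the marrow 11 members rose and 19 fell in vavCre, again with 8 amino acid carriers among those that fell. Calls are at a Benjamini-Hochberg adjusted p under 0.05 over all genes tested with limma, on log2(value + 1), a scale that understates the change of low genes. Of all genes tested in the spleen 2.98% rose and 2.54% fell, and in the marrow 3.41% rose and 4.4% fell. Among the 11487 genes that meet the same level threshold, 3.83% rose and 3.09% fell in the spleen, and 4.39% rose and 5.2% fell in the marrow. The members' median log2 change was 0.04 in the spleen and -0.03 in the marrow, against -0.02 and -0.04 over all genes. For the 33 amino acid and peptide carriers, of which 2 rose and 8 fell in each tissue, the median was -0.30 in the spleen and -0.25 in the marrow. In sorted bulk samples, fewer cells of a type and less RNA per cell cannot be told apart. The summed red pulp and erythroid markers given above were lower, and the summed general macrophage markers higher, in the vavCre libraries of both tissues without overlap. The summed B cell markers were lower in the marrow, and the endothelial and stromal markers in the spleen, without overlap. Of the 6 red pulp markers 5 fell in the spleen and 4 in the marrow. Of the 8 general macrophage markers 2 rose and 0 fell in the spleen, and 3 rose and 1 fell in the marrow. The part of all these markers in the members' changes was not tested. DESeq2 called 13 members higher and 16 lower in the spleen, and 13 higher and 20 lower in the marrow. It also called more of all genes than limma did. In the spleen it called 1328 of 13273 genes, 703 of them higher, and in the marrow 1648 of 12950, 735 of them higher. With the compared groups alone, 33 members were called in the spleen and 19 in the marrow, and without marrow WT replicate 3 or marrow vavCre replicate 1 the marrow count was 18. Among the marrow calls lost with the compared groups alone were Slc22a5, Slc25a10, Slc25a20, Slc25a21, Slc25a32, Slc25a37, Slc28a2, Slc39a1, Slc41a1 and Slc43a1, at adjusted p-values of 0.056 to 0.187.

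**Figure D1:**
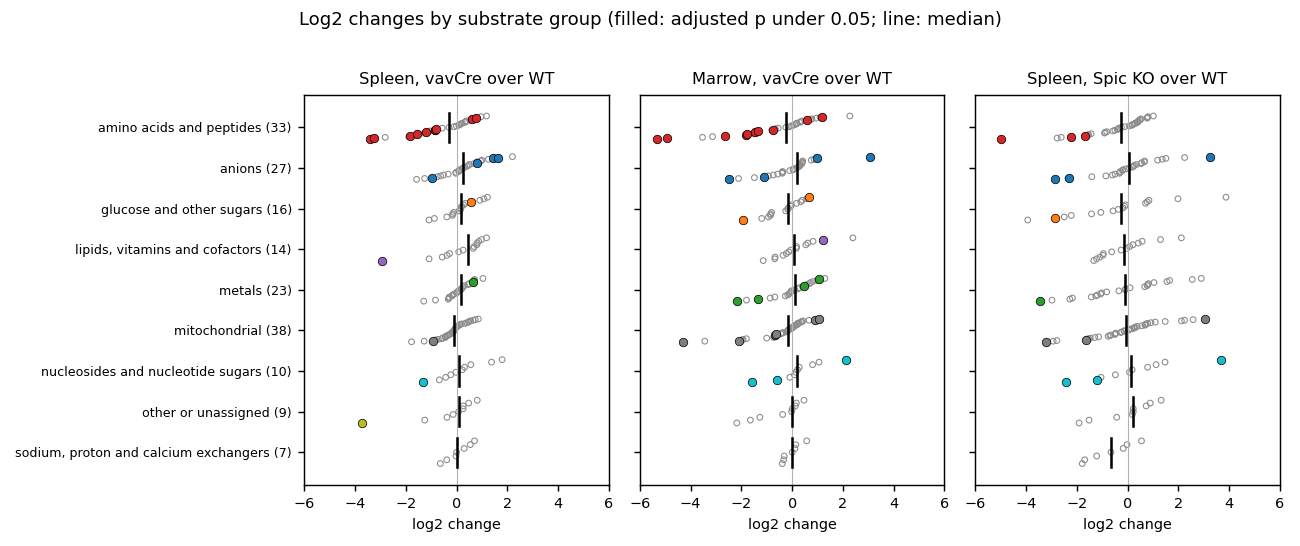
Log2 change of each of the 177 members (1 point each, x axis) by substrate group (rows, with the number of members), for vavCre over WT in spleen, vavCre over WT in marrow and Spic_KO over Spic_WT; filled points passed an adjusted p under 0.05 and the black line is the group's median. The row of amino acid and peptide carriers holds 10 filled points in each vavCre panel, 8 of them left of 0.

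Slc1a3 (chr15:8634124-8710764), the carrier that takes up glutamate and aspartate with sodium, had 134, 81.4 and 63.5 normalised read counts in spleen vavCre, against 862, 936 and 798 in spleen WT. In the marrow it had 364, 105 and 115 in vavCre, against 895, 1045 and 1212 in WT. The groups did not overlap in either tissue, and marrow vavCre replicate 1 lay above its 2 companions. The log2 change was -3.27 (SE 0.39, adjusted p = 1.56e-05) in the spleen and -2.66 (SE 0.39, adjusted p = 0.000171) in the marrow.

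Slc7a2 (chr8:40862396-40922308), a carrier of the cationic amino acids arginine, lysine and ornithine, had 22.7, 76.3 and 48.4 in spleen vavCre, against 379, 435 and 668 in spleen WT. Marrow vavCre libraries gave 2.09, 10.9 and 11.3, which is 1, 9 and 5 reads, against 422, 237 and 284 in marrow WT. All 6 vavCre libraries lay below all 6 WT libraries. The log2 change was -3.42 (SE 0.61, adjusted p = 0.00129) in the spleen and -5.32 (SE 0.61, adjusted p = 1.38e-05) in the marrow. Within vavCre the spleen was higher than the marrow, by 2.55 (SE 0.61, adjusted p = 0.0237), a call that was lost when any 1 of 3 libraries was left out and had an adjusted p of 0.115 without spleen vavCre replicate 2.

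Of the 3 SLC15 peptide carriers, Slc15a2 fell in both tissues, Slc15a3 fell in the spleen and Slc15a4 was not called. Slc15a2 (chr16:36750177-36784962), which imports di- and tripeptides with protons, had 122, 146 and 86.5 in spleen vavCre, against 450, 348 and 480 in spleen WT, and 310, 73.9 and 143 in marrow vavCre, against 505, 506 and 580 in marrow WT. Its log2 change was -1.86 (SE 0.40, adjusted p = 0.00727) in the spleen and -1.83 (SE 0.40, adjusted p = 0.00756) in the marrow, with no overlap of groups. Slc15a3, a lysosomal carrier of peptides and histidine, had 817, 490 and 551 in spleen vavCre, against 1657, 1978 and 1688 in spleen WT, a log2 change of -1.55 (SE 0.22, adjusted p = 0.000139). In the marrow its groups overlapped, at 802, 1042 and 1236 in vavCre and 1468, 1869 and 1172 in WT, and the log2 change of -0.55 (SE 0.22, adjusted p = 0.161) did not pass. The difference between the tissues' changes was -1.002 (SE 0.31, adjusted p = 0.459), which did not pass either. Slc15a4, its lysosomal relative, had log2 changes of 0.53 in the spleen and 0.17 in the marrow (adjusted p = 0.305 and 0.767).

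The heavy chain Slc3a2 (chr19:8706882-8723369), which brings light chains of the SLC7 family to the cell surface, had 3972, 3188 and 3944 in spleen vavCre, against 6361, 5969 and 7042 in spleen WT. In marrow vavCre it had 2545, 3115 and 3067, against 4338, 5789 and 4551 in marrow WT. The 2 genotypes did not overlap in either tissue, and the log2 change was -0.81 (SE 0.14, adjusted p = 0.000886) in the spleen and -0.74 (SE 0.14, adjusted p = 0.00187) in the marrow. Its light chain Slc7a8 (chr14:54722209-54781946), an exchanger of neutral amino acids, had 1625, 1662 and 1772 in spleen vavCre, against 3345, 3117 and 2830 in spleen WT, and 1905, 1484 and 1564 in marrow vavCre, against 5458, 3792 and 4449 in marrow WT. The log2 change of Slc7a8 was -0.87 (SE 0.15, adjusted p = 0.000892) in the spleen and -1.46 (SE 0.15, adjusted p = 3.38e-06) in the marrow. Of the other members that are light chains of Slc3a2, Slc7a5, Slc7a6 and Slc7a7 were not called in either vavCre comparison, and Slc7a11 is not a member. Slc7a5 had log2 changes of -0.57 in the spleen and -0.80 in the marrow (adjusted p = 0.666 and 0.382). Slc7a6 had -1.50 and -1.38 (adjusted p = 0.24 and 0.225), and Slc7a7, which exports arginine and lysine, had -0.30 and 0.12 (adjusted p = 0.411 and 0.752). Of 3 ancillary subunits of transporters, Slc3a2 was the 1 called in each tissue.

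The SLC43 carriers went both ways. Slc43a1 (chr2:84838850-84863594), a carrier of leucine and other large neutral amino acids that is known from red cell precursors, had 167, 250 and 297 in spleen vavCre, against 640, 467 and 513 in spleen WT, and 105, 130 and 143 in marrow vavCre, against 253, 353 and 356 in marrow WT. Its log2 change was -1.21 (SE 0.31, adjusted p = 0.0229) in the spleen, where the call was lost when any 1 of 5 libraries was left out (adjusted p = 0.136 without WT replicate 1), and -1.34 (SE 0.31, adjusted p = 0.00938) in the marrow, with an adjusted p of 0.0674 with the compared groups alone. Slc43a2 (chr11:75531694-75577575), a carrier of the same amino acids, had 4200, 4665 and 4826 in spleen vavCre, against 2965, 3445 and 2654 in spleen WT, and 5139, 5423 and 5547 in marrow vavCre, against 3895, 3006 and 3935 in marrow WT. It rose by a log2 change of 0.60 (SE 0.13, adjusted p = 0.00823) in the spleen and 0.58 (SE 0.13, adjusted p = 0.00919) in the marrow, and the spleen call was lost without vavCre replicate 3 (adjusted p = 0.0525). Slc43a3 (chr2:84936579-84958509), a carrier of purine bases, had 543, 474 and 582 in spleen vavCre, against 1041, 1514 and 1510 in spleen WT, and 331, 469 and 398 in marrow vavCre, against 911, 1224 and 1455 in marrow WT. It fell by 1.33 on the log2 scale in the spleen (SE 0.22, adjusted p = 0.000819) and by 1.57 in the marrow (SE 0.22, adjusted p = 0.000141). Each of these 3 genes kept its genotypes apart in both tissues. The 17 erythroid markers, 10 of which fell in the spleen and 15 in the marrow, moved with Slc43a1, and their part in its change was not tested.

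The taurine carrier Slc6a6 (chr6:91684053-91759066) rose in both tissues. It had 5734, 5732 and 5557 in spleen vavCre, against 3112, 3613 and 3383 in spleen WT, and 6931, 7826 and 8469 in marrow vavCre, against 4088, 2689 and 3622 in marrow WT. The log2 change was 0.75 (SE 0.14, adjusted p = 0.00167) in the spleen and 1.18 (SE 0.14, adjusted p = 1.88e-05) in the marrow, and the lowest vavCre library lay well above the highest WT library of its tissue.

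Neutral amino acid carriers of the SLC1 family were called in the marrow. Slc1a5, which takes up glutamine, had 79.5, 98.2 and 158 in marrow vavCre, against 187, 564 and 474 in marrow WT, a log2 change of -1.77 (SE 0.40, adjusted p = 0.00835). In the spleen it had 217, 250 and 177 in vavCre, against 393, 591 and 366 in WT, and the log2 change of -1.05 (SE 0.40, adjusted p = 0.166) did not pass. Slc1a4, which carries alanine, serine and cysteine, was at 0 in all 3 marrow vavCre libraries, against 34.2, 40.3 and 17.8 in marrow WT. With a floor of 3 reads per library it was at least 5.52-fold lower in marrow vavCre (adjusted p = 0.00229). Spleen vavCre libraries held 16, 11 and 30.1, against 19.3, 11.6 and 10.5 in spleen WT, with overlap. Slc16a10, which carries aromatic amino acids, had 1103, 1184 and 1233 in spleen vavCre, against 2310, 2112 and 1998 in spleen WT, a log2 change of -0.87 (SE 0.20, adjusted p = 0.0122) that had an adjusted p of 0.0657 without WT replicate 1.

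Genes of the amino acid response, which the factor ATF4 drives when amino acids run short, were counted beside the carriers. Of 15 such genes, Nupr1 and Pycr1 were called in the spleen, 1 in each direction, and Aldh18a1 and Asns fell in the marrow. Of all genes tested 2.98% rose and 2.54% fell in the spleen, and 3.41% rose and 4.4% fell in the marrow. The median log2 change of the 15 was -0.28 in the spleen and -0.61 in the marrow. Their sum was 2690 to 3642 in spleen vavCre, against 3952 to 4419 in spleen WT. In the marrow it was 2537 to 3269 in vavCre, against 3318 to 4665 in WT. The sums did not overlap in either tissue and were not tested.

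**Figure D2:**
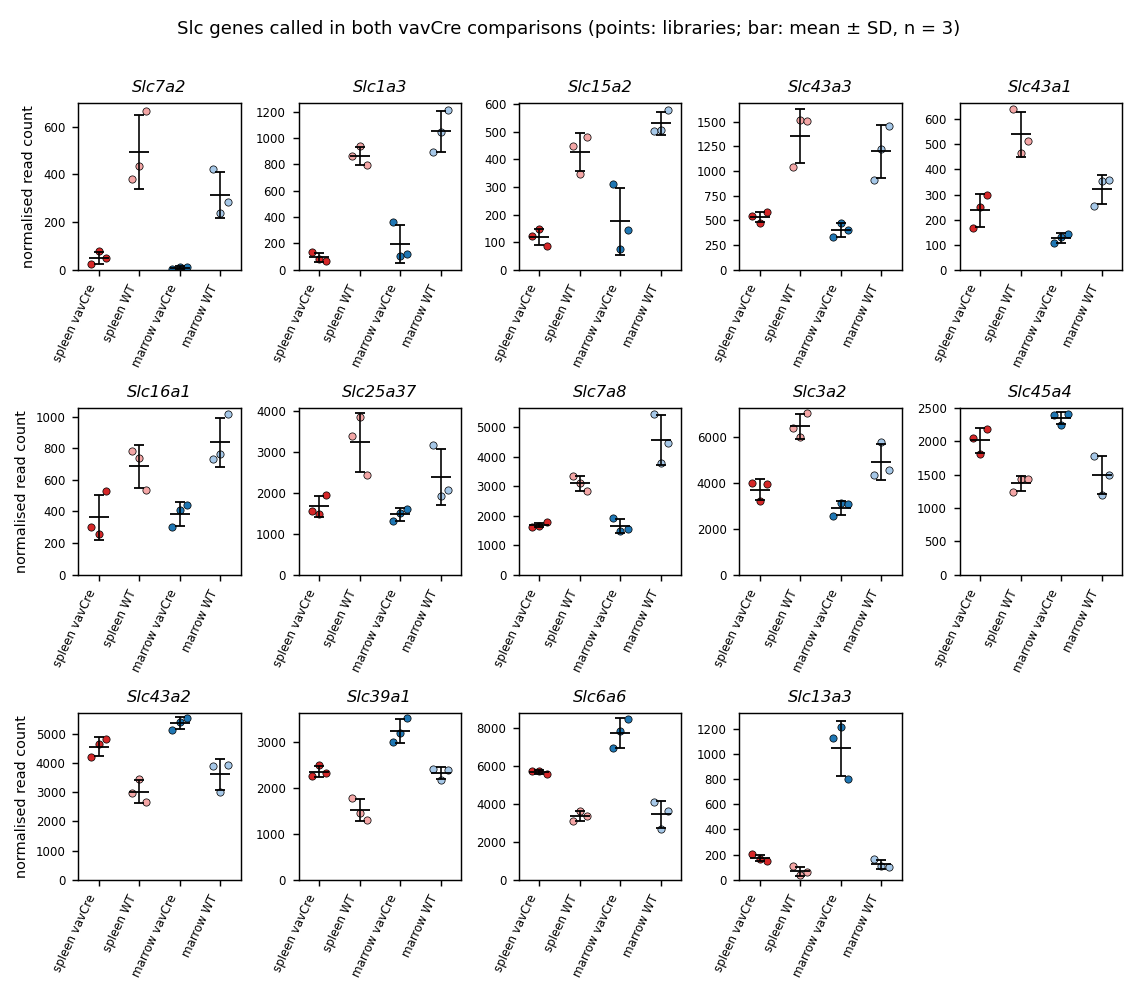
Normalised read counts (y axis, from 0, own scale per gene) of the 14 members called in both vavCre comparisons, for spleen vavCre, spleen WT, marrow vavCre and marrow WT; points are libraries and bars the mean ± SD (n = 3). In the first 9 panels vavCre lies below WT in both tissues, and in the last 5 above it.

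Among the anion carriers, 3 rose and 1 fell in the spleen, and 2 rose and 2 fell in the marrow. Slc13a3 (chr2:165405028-165473230), which takes up succinate, other dicarboxylates and N-acetylaspartate with sodium, had 203, 164 and 153 in spleen vavCre, against 108, 38.2 and 59.3 in spleen WT. In marrow vavCre it had 1124, 1217 and 799, against 163, 109 and 98.2 in marrow WT. The log2 change was 1.45 (SE 0.39, adjusted p = 0.0334) in the spleen and 3.09 (SE 0.39, adjusted p = 3.7e-05) in the marrow, the largest rise of any called member there. The spleen call was lost when any 1 of 5 libraries was left out (adjusted p = 0.171 without WT replicate 2). Within vavCre Slc13a3 was lower in the spleen than in the marrow, with a log2 difference of -2.57 (SE 0.39, adjusted p = 0.000482). The difference between the genotype changes in the 2 tissues was -1.64 by limma (SE 0.55, adjusted p = 0.537), which did not pass, and -1.75 by DESeq2 (adjusted p = 0.047), which did.

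The lactate and pyruvate carrier Slc16a1 (chr3:104638668-104658462) had 299, 259 and 527 in spleen vavCre, against 782, 739 and 532 in spleen WT, and 299, 407 and 444 in marrow vavCre, against 732, 760 and 1016 in marrow WT. Its log2 change was -0.97 (SE 0.28, adjusted p = 0.0479) in the spleen and -1.13 (SE 0.28, adjusted p = 0.0158) in the marrow. Spleen vavCre replicate 3 nearly reached the lowest WT library. The adjusted p was 0.23 in the spleen without vavCre replicate 2 and 0.0794 in the marrow without WT replicate 3. Slc16a9, of the same family and linked to carnitine transport, had 83.7, 31.5 and 102 in marrow vavCre, against 292, 482 and 361 in marrow WT, a log2 change of -2.50 (SE 0.36, adjusted p = 0.000153). In the spleen it had 412, 459 and 473 in vavCre, against 711, 900 and 695 in WT, without overlap, and the log2 change of -0.77 (SE 0.36, adjusted p = 0.301) did not pass.

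Slc12a9 (chr5:137314558-137333597), a relative of the cation-chloride cotransporters, had 292, 353 and 411 in spleen vavCre, against 93.7, 114 and 130 in spleen WT, a log2 change of 1.63 (SE 0.29, adjusted p = 0.00121). In the marrow, 490, 377 and 482 in vavCre lay above 231, 311 and 256 in WT, but the log2 change of 0.76 (SE 0.29, adjusted p = 0.131) did not pass. Slc12a2, the sodium-potassium-chloride cotransporter, had 6487, 8443 and 7781 in spleen vavCre, against 4890, 5085 and 3299 in spleen WT, a log2 change of 0.79 (SE 0.20, adjusted p = 0.0213) that had an adjusted p of 0.131 without WT replicate 3. Its marrow groups overlapped, at 2711, 1658 and 2623 in vavCre and 2817, 2532 and 3726 in WT. Slc17a5, which exports sialic acid from lysosomes, rose in the marrow, with 881, 953 and 880 in vavCre, against 569, 377 and 465 in WT, a log2 change of 0.96 (SE 0.21, adjusted p = 0.00727). In the spleen Slc17a5 had a log2 change of 0.32 (SE 0.21, adjusted p = 0.532), which did not pass.

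Of the 16 sugar carriers, 1 rose and 0 fell in the spleen, and 1 rose and 1 fell in the marrow. At an unadjusted p under 0.05 there were 4 in the spleen and 2 in the marrow, against 2439 and 3112 of all 15130 genes. By edgeR or DESeq2 0 fell in the spleen. Slc45a4 (chr15:73577424-73645762), a proton-coupled carrier of the sucrose carrier family, had 2047, 1805 and 2183 in spleen vavCre, against 1241, 1435 and 1432 in spleen WT, and 2401, 2247 and 2406 in marrow vavCre, against 1778, 1201 and 1496 in marrow WT. It rose by a log2 change of 0.55 (SE 0.16, adjusted p = 0.0464) in the spleen and 0.67 (SE 0.16, adjusted p = 0.0111) in the marrow. Both calls were lost when 1 library was left out, at an adjusted p of 0.195 without spleen WT replicate 1 and 0.05003 without marrow WT replicate 2. Slc45a3 (chr1:131962967-131982969), of the same family, had 39.8, 83.6 and 206 in marrow vavCre, against 272, 424 and 352 in marrow WT, a log2 change of -1.95 (SE 0.38, adjusted p = 0.00299). In the spleen its 1084, 1218 and 1164 in vavCre lay below 2035, 2136 and 2215 in WT without overlap, at a log2 change of -0.88 (SE 0.38, adjusted p = 0.25), which did not pass. The family's 2 called members therefore went opposite ways in the marrow.

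Among the carriers of lipids, vitamins and cofactors, Slc22a4, which takes up ergothioneine, had 17.2, 13.6 and 32.5 in spleen vavCre, against 137, 168 and 176 in spleen WT, a log2 change of -2.95 (SE 0.64, adjusted p = 0.00726). Its marrow groups overlapped, at 146, 41.2 and 63.4 in vavCre and 219, 69.2 and 53.3 in WT. Slc22a5, the carnitine carrier, had 270, 211 and 238 in marrow vavCre, against 113, 90.2 and 104 in marrow WT, a log2 change of 1.22 (SE 0.34, adjusted p = 0.03), with an adjusted p of 0.0821 without vavCre replicate 1. The mitochondrial carnitine-acylcarnitine carrier Slc25a20, which brings the fatty acid load of carnitine to its site of oxidation, had 245, 294 and 262 in marrow vavCre, against 161, 115 and 113 in marrow WT. Its log2 change of 1.05 (SE 0.31, adjusted p = 0.0446) had an adjusted p of 0.123 without WT replicate 3. The largest fall in the spleen was that of Slc22a17, a receptor for the iron-binding protein lipocalin 2, which had 12.9, 5.93 and 30.1 in spleen vavCre, against 124, 353 and 152 in spleen WT, a log2 change of -3.72 (SE 0.72, adjusted p = 0.00292).

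Of the 23 metal carriers, 1 rose in the spleen, and 2 rose and 2 fell in the marrow. The zinc importer Slc39a1 (chr3:90248172-90253612) had 2245, 2482 and 2311 in spleen vavCre, against 1771, 1443 and 1306 in spleen WT, and 2993, 3193 and 3513 in marrow vavCre, against 2411, 2164 and 2378 in marrow WT. Its log2 change was 0.65 (SE 0.14, adjusted p = 0.00706) in the spleen and 0.48 (SE 0.14, adjusted p = 0.042) in the marrow, where the adjusted p was 0.137 without vavCre replicate 3. Slc31a2, which helps copper leave late endosomes, had 825, 564 and 962 in marrow vavCre, against 477, 336 and 319 in marrow WT, a log2 change of 1.04 (SE 0.25, adjusted p = 0.0117), with an adjusted p of 0.0583 without vavCre replicate 3. Slc39a8, an importer of zinc and manganese, fell in the marrow, with 151, 344 and 215 in vavCre, against 507, 482 and 746 in WT, a log2 change of -1.34 (SE 0.31, adjusted p = 0.0111), with an adjusted p of 0.0648 without WT replicate 3. The magnesium carrier Slc41a1 had 10.5, 42.4 and 20.4 in marrow vavCre, against 137, 69.2 and 98.2 in marrow WT, a log2 change of -2.16 (SE 0.60, adjusted p = 0.0323), with an adjusted p of 0.117 without WT replicate 1. Of 3 genes that respond to zinc, Mt2 fell in the marrow by limma.

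In the mitochondrial SLC25 family, 0 of 38 members rose and 1 fell in the spleen, and 2 rose and 4 fell in the marrow. In the spleen 2 had a positive change at an unadjusted p under 0.05, and edgeR and DESeq2 each called 1 member higher. The called member of the spleen was Slc25a37 (chr14:69241848-69285112), mitoferrin 1, which imports iron for heme synthesis in red cell precursors. It had 1558, 1479 and 1951 in spleen vavCre, against 3382, 3846 and 2440 in spleen WT, and 1298, 1515 and 1609 in marrow vavCre, against 3169, 1930 and 2065 in marrow WT. The genotypes did not overlap, and the log2 change was -0.94 (SE 0.20, adjusted p = 0.00574) in the spleen and -0.67 (SE 0.20, adjusted p = 0.0454) in the marrow. The marrow call was lost when any 1 of 8 libraries was left out, with an adjusted p of 0.219 without WT replicate 1. The summed erythroid markers, given above, were lower in the same vavCre libraries, and their part in this change was not tested. The ADP/ATP carrier Slc25a5, the member with the highest level, had 7799 ± 1267 in spleen vavCre and 8609 ± 901 in spleen WT (SD, n = 3 each), with overlap, and 6595 ± 1160 in marrow vavCre and 6568 ± 713 in marrow WT.

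Slc25a51, the mitochondrial NAD carrier, had 1179, 1267 and 1052 in marrow vavCre, against 2035, 1652 and 1696 in marrow WT, a log2 change of -0.62 (SE 0.17, adjusted p = 0.0311), with an adjusted p of 0.123 without WT replicate 1. The dicarboxylate carrier Slc25a10 had 800, 761 and 686 in marrow vavCre, against 312, 558 and 366 in marrow WT, a log2 change of 0.90 (SE 0.26, adjusted p = 0.0353), with an adjusted p of 0.143 without WT replicate 1. The folate and FAD carrier Slc25a32 had 25.1, 12.1 and 70.2 in marrow vavCre, against 100, 186 and 98.2 in marrow WT, a log2 change of -2.09 (SE 0.60, adjusted p = 0.0382), with an adjusted p of 0.129 without WT replicate 2. All 3 kept their groups apart yet lost the call when single libraries were left out. The oxodicarboxylate carrier Slc25a21 had 0, 1.21 and 20.4 in marrow vavCre, which is 0, 1 and 9 reads, against 175, 10.5 and 174 in marrow WT, so its groups overlapped. Its log2 change was -4.29 (SE 1.11, adjusted p = 0.0214), with an adjusted p of 0.105 without WT replicate 3.

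Nucleoside carriers gave 1 fall in the spleen, Slc43a3, and 1 rise and 2 falls in the marrow. Slc28a2, which takes up purine nucleosides with sodium, had 92.1, 124 and 199 in marrow vavCre, against 14.1, 34.2 and 51.2 in marrow WT, a log2 change of 2.13 (SE 0.59, adjusted p = 0.0323), with an adjusted p of 0.121 without WT replicate 1. Its spleen values, 151, 137 and 127 in vavCre and 30.8, 29.1 and 67.1 in WT, did not overlap either, and the log2 change of 1.79 (SE 0.59, adjusted p = 0.0961) did not pass. Slc29a1, the equilibrative nucleoside carrier of many blood cells, had 1559, 1797 and 1772 in marrow vavCre, against 2282, 3295 and 2355 in marrow WT, a log2 change of -0.61 (SE 0.17, adjusted p = 0.0364), with an adjusted p of 0.155 without WT replicate 2. Of the 7 exchangers of sodium, protons and calcium, 0 were called in either tissue by limma, edgeR or DESeq2, with 1 in the spleen and 0 in the marrow at an unadjusted p under 0.05 by limma. Slc9a9, a proton exchanger of recycling endosomes, had a mean of 2530 normalised read counts.

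The spleen and the marrow shared 14 called members, all in the same direction. They are 70% of the 20 called in the spleen and 46.7% of the 30 called in the marrow. Over all genes tested 518 were called in both, 517 of them in the same direction in both, which is 62.0% of the spleen calls and 43.8% of the marrow calls. The shared falls were Slc15a2, Slc16a1, Slc1a3, Slc25a37, Slc3a2, Slc43a1, Slc43a3, Slc7a2 and Slc7a8, and the shared rises Slc13a3, Slc39a1, Slc43a2, Slc45a4 and Slc6a6. Leaving out any 1 library left 13 of the 20 spleen calls and 15 of the 30 marrow calls in place.

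**Figure D3:**
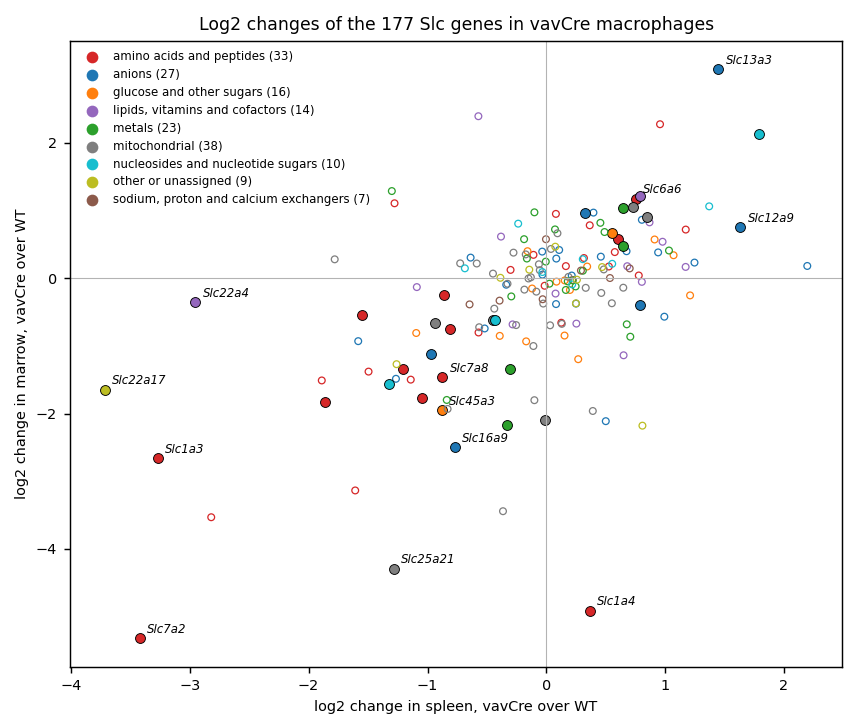
Log2 change of vavCre over WT in the spleen (x axis) and in the marrow (y axis) for the 177 members, coloured by substrate group; filled points were called in at least 1 tissue. Slc7a2 and Slc1a3 sit at the lower left, with -3.42 and -3.27 in the spleen, Slc13a3 at the top right with 3.09 in the marrow, and Slc1a4, at 0 reads in marrow vavCre, at the lower right.

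No member passed the limma test of a difference between the genotype effects in the 2 tissues. Limma called 0, against 0.119% of all genes tested, and edgeR called 0, against 29 of 12581 genes. At an unadjusted p under 0.05 by limma there were 22 of 177 members and 935 of 15130 genes. DESeq2 called 4, against 107 of 13273 genes, and the 4 were Slc12a2, Slc13a3, Slc16a9 and Slc1a4. The smallest p in limma were those of Slc12a2, with a difference of 1.18 (SE 0.28, adjusted p = 0.193), Slc1a4, with 5.28 (SE 1.32, adjusted p = 0.261), and Slc16a9, with 1.73 (SE 0.51, adjusted p = 0.42). By limma, a call in 1 tissue alone is therefore not shown to be particular to it.

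Between spleen and marrow macrophages, the shares of members called were near those of all genes tested. In vavCre pups 6 members (3.39%) were higher and 1 (0.565%) lower in the spleen, against 2.68% and 0.82% of all genes tested. In WT pups 2 (1.13%) were higher and 4 (2.26%) lower, against 2.07% and 1.82%. These comparisons share libraries with the genotype comparisons above. DESeq2 called 20 in vavCre and 10 in WT, against 1008 and 1015 of 13273 genes tested. The count was 4 in vavCre without spleen vavCre replicate 3, and 3 in WT without any 1 of the 3 spleen libraries or of marrow replicates 1 and 3. Slc45a3 had 1084, 1218 and 1164 in spleen vavCre, against 39.8, 83.6 and 206 in marrow vavCre, and 2035, 2136 and 2215 in spleen WT, against 272, 424 and 352 in marrow WT. The log2 difference was 3.69 (SE 0.38, adjusted p = 7.84e-06) in vavCre and 2.63 (SE 0.38, adjusted p = 0.00039) in WT, the largest called in WT. Slc7a7 was also higher in the WT spleen, at 2147, 2082 and 2610, against 1124, 1283 and 1330 in marrow WT, a log2 difference of 0.87 (SE 0.17, adjusted p = 0.00497).

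Lower in the spleen than in the marrow of WT pups were Slc12a9, with a log2 difference of -1.23 (SE 0.29, adjusted p = 0.0192), Slc23a2, a vitamin C carrier, with -0.80 (SE 0.21, adjusted p = 0.0363), Slc39a1, with -0.63 (SE 0.14, adjusted p = 0.0142), and Slc7a8, with -0.55 (SE 0.15, adjusted p = 0.0467). Each of these 4 calls was lost when single libraries were left out, with an adjusted p of 0.0895 without spleen WT replicate 1 for Slc12a9, 0.191 without marrow WT replicate 1 for Slc23a2, 0.0804 without spleen WT replicate 3 for Slc39a1 and 0.231 without marrow WT replicate 1 for Slc7a8. In vavCre the spleen was higher for Slc12a2, by 1.72 (SE 0.20, adjusted p = 2.32e-05), and for Slc16a9, by 2.77 (SE 0.36, adjusted p = 0.000106). Slc12a2 had 6487, 8443 and 7781 in spleen vavCre, against 2711, 1658 and 2623 in marrow vavCre. Slc44a2, a choline carrier, was higher by 1.54 (SE 0.40, adjusted p = 0.0385), and had an adjusted p of 0.149 without spleen vavCre replicate 1 and of 0.0748 by edgeR. Slc1a4 was at least 3.42-fold higher in spleen vavCre, by the same floor of 3 reads per library in the marrow (adjusted p = 0.0151, and 0.0767 without spleen vavCre replicate 3).

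**Figure D4:**
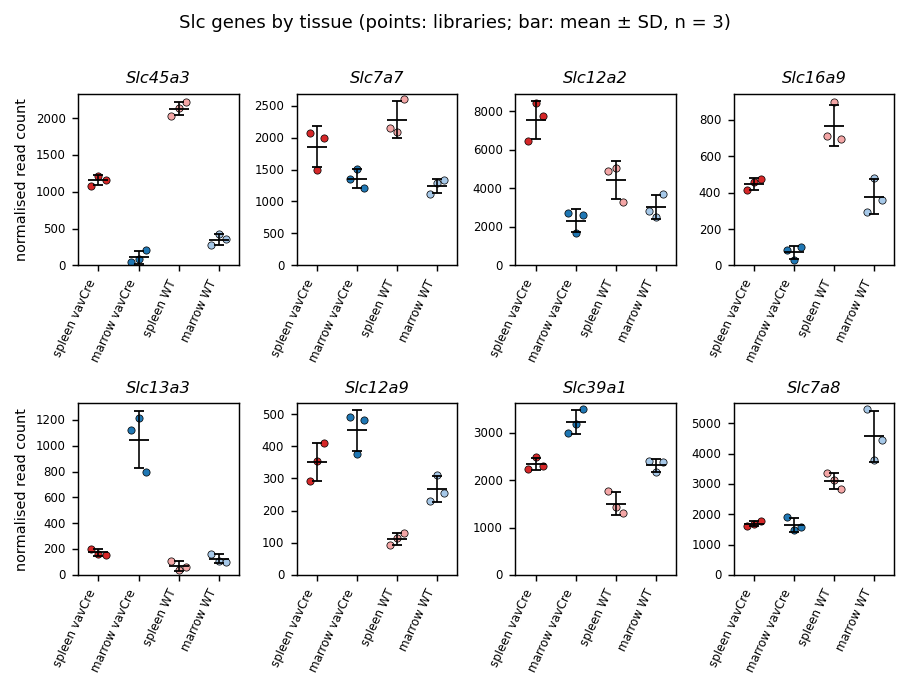
Normalised read counts (y axis, from 0, own scale per gene) of 8 members called between tissues, for spleen vavCre, marrow vavCre, spleen WT and marrow WT; points are libraries and bars the mean ± SD (n = 3). Slc45a3 is higher in the spleen in both genotypes, and Slc13a3 reaches 799 to 1217 in marrow vavCre.

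In spleen macrophages labelled Spic_KO, named for the transcription factor gene Spic of red pulp macrophages, 3 members were higher and 11 lower than in Spic_WT, against 1.47% and 2.48% of all genes tested and 1.69% and 3.51% of those past the level threshold. The arginine carrier Slc7a2, the glutamate carrier Slc1a3, the purine carrier Slc43a3 and the ADP/ATP carrier Slc25a5 were among those that fell, and Slc12a9 and Slc28a2 among those that rose. The members' median log2 change was -0.11, against 0 over all genes tested and -0.21 over the genes past the threshold. By edgeR 5 members rose and 11 fell, and by DESeq2 13 rose and 12 fell. Over all genes limma called 245 higher of 658, edgeR 440 of 809 and DESeq2 978 of 1835, with 16650, 12939 and 13031 genes tested. The calls rested on 2 Spic_KO libraries that differed from each other: 3 of the 14 (Slc7a2, Slc45a3 and Slc12a9) held whichever library was left out, and the count was 25 without Spic_KO replicate 1, 6 without Spic_KO replicate 2, 4 without Spic_WT replicate 1, 7 without Spic_WT replicate 2 and 8 without Spic_WT replicate 3. With the compared groups alone 9 were called, and Slc16a6, Slc1a3, Slc20a2, Slc25a12, Slc28a2 and Slc31a1 were not, at adjusted p-values of 0.0522 to 0.122.

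Slc7a2 had 1 and 2.07 in Spic_KO, which is 2 and 4 reads, against 73.6, 80.9 and 79.9 in Spic_WT, a log2 change of -5.00 (SE 0.65, adjusted p = 0.000104). Slc45a3 had 13.5 and 73 in Spic_KO, against 240, 212 and 253 in Spic_WT, a log2 change of -2.85 (SE 0.51, adjusted p = 0.00224). Slc12a9 had 142 and 109 in Spic_KO, against 12.9, 9.46 and 14.6 in Spic_WT, a log2 change of 3.25 (SE 0.59, adjusted p = 0.00278). For all 3 the 2 genotypes lay far apart, with each KO library on the same side.

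Slc1a3 had 80.1 and 20.2 in Spic_KO, against 216, 191 and 179 in Spic_WT, a log2 change of -2.24 (SE 0.45, adjusted p = 0.00626). Slc43a3 had 59.6 and 15 in Spic_KO, against 179, 173 and 148 in Spic_WT, a log2 change of -2.42 (SE 0.59, adjusted p = 0.0219). The genotypes did not overlap, but Spic_KO replicate 2 was the lower library in both genes, and without it the adjusted p was 0.133 for Slc1a3 and 0.272 for Slc43a3. Slc1a3, Slc43a3 and Slc7a2 are the members that fell in both vavCre comparisons and in Spic_KO. The share of all genes that did so was not counted. As given above, Pparg was lower in Spic_KO and Spic was lower in spleen vavCre, and their part in this overlap was not tested.

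Slc16a10 had 128 and 80.7 in Spic_KO, against 344, 301 and 329 in Spic_WT, a log2 change of -1.66 (SE 0.37, adjusted p = 0.0121), with an adjusted p of 0.13 without Spic_KO replicate 2. Slc25a5 had 461 and 279 in Spic_KO, against 1386, 890 and 1144 in Spic_WT, a log2 change of -1.64 (SE 0.35, adjusted p = 0.00889), with an adjusted p of 0.133 without Spic_KO replicate 2. Slc29a1 had 175 and 171 in Spic_KO, against 487, 368 and 345 in Spic_WT, a log2 change of -1.19 (SE 0.30, adjusted p = 0.0265), with an adjusted p of 0.156 without Spic_WT replicate 1. These are 3 of the better expressed members that fell. Slc25a17, a peroxisomal carrier of cofactors, had 4 and 12.4 in Spic_KO, against 80.4, 94.6 and 54.4 in Spic_WT, a log2 change of -3.20 (SE 0.70, adjusted p = 0.0111), with an adjusted p of 0.075 without Spic_WT replicate 1. The ketone body and taurine carrier Slc16a6 had 10 and 15.5 in Spic_KO, against 82.9, 44.9 and 77.7 in Spic_WT, a log2 change of -2.32 (SE 0.62, adjusted p = 0.0402), with an adjusted p of 0.18 without Spic_WT replicate 1. Slc20a2, a phosphate importer, had 10 and 2.59 in Spic_KO, against 39.7, 54.7 and 42.1 in Spic_WT, a log2 change of -2.87 (SE 0.74, adjusted p = 0.0312), with an adjusted p of 0.216 without Spic_KO replicate 2.

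The copper importer Slc31a1 had 37 and 0.517 in Spic_KO, against 99.6, 67.6 and 84.5 in Spic_WT, a log2 change of -3.46 (SE 0.93, adjusted p = 0.0398). The lower KO value is 1 read, and without that library the log2 change was -1.14 (adjusted p = 0.525). Slc31a1 was not called by edgeR (adjusted p = 0.169) or DESeq2 (adjusted p = 0.111). Slc28a2 rose, with 32 and 47.1 in Spic_KO, against 2.27, 0.35 and 5.5 in Spic_WT, a log2 change of 3.70 (SE 0.97, adjusted p = 0.0349), with an adjusted p of 0.184 without Spic_KO replicate 2. Slc25a12, a carrier of aspartate and glutamate, had 591 and 153 in Spic_KO, against 31.6, 91.5 and 14.6 in Spic_WT, a log2 change of 3.06 (SE 0.68, adjusted p = 0.0128). Its 2 KO libraries differed widely, and without Spic_KO replicate 1 the adjusted p was 0.101. The 6 red pulp markers summed to 5926 and 6229 in Spic_KO, against 14774 to 23112 in Spic_WT, and 4 of them, Spic included, fell. The 8 macrophage markers summed to 14243 and 14436 in Spic_KO, against 19243 to 28937 in Spic_WT, and the part of both lists in these changes was not tested. Erythroid markers summed to 77668 and 80771 in Spic_KO, against 78591 to 109235 in Spic_WT. Of the amino acid response genes 14 were tested, of which Cebpb and Mthfd2 were called, 1 in each direction. The median log2 change of these 14 was -0.32, while the list summed to 659 and 939 in Spic_KO, against 522 to 574 in Spic_WT.

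**Figure D5:**
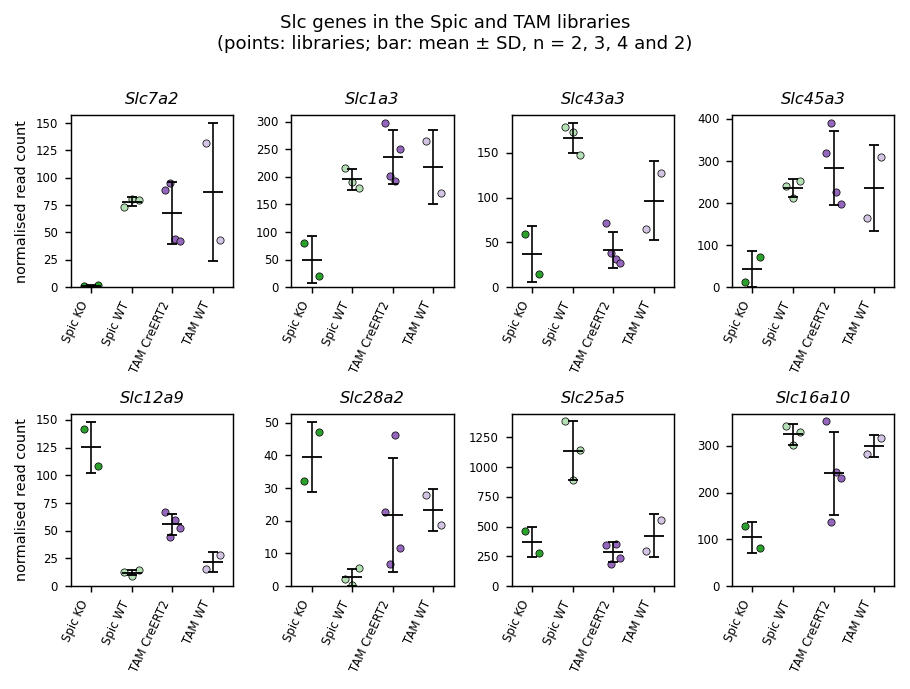
Normalised read counts (y axis, from 0, own scale per gene) of 8 members in Spic KO, Spic WT, TAM CreERT2 and TAM WT spleen macrophages; points are libraries (2, 3, 4 and 2) and bars the mean ± SD, stopped at 0. Slc7a2 lies near 0 in both Spic KO libraries, and Slc12a9 at 109 and 142 there, against 9.46 to 14.6 in Spic WT.

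In adult spleen macrophages, no member passed the limma test between TAM_CreERT2 and TAM WT. Limma called 0, against 0.144% of all genes tested, and edgeR called 0, against 23 of 12939 genes. At an unadjusted p under 0.05 by limma there were 13 of 177 members and 1244 of 16650 genes. DESeq2 called 4, against 138 of 11788 genes, and the 4 were Slc12a2, Slc15a3, Slc26a11 and Slc5a2. The members' median log2 change was -0.04. The smallest p in limma was that of Slc26a11, an anion exchanger, with 42, 11.1, 29.2 and 32.1 in TAM_CreERT2, against 0.817 and 3.98 in TAM WT, a log2 change of 3.16 (SE 0.78, adjusted p = 0.168). Slc5a2, a sodium-glucose carrier, had 1.14, 0, 0.941 and 5.14 in TAM_CreERT2, against 75.9 and 10.8 in TAM WT, a log2 change of -3.75 (SE 1.07, adjusted p = 0.3). Slc12a2 had 1494, 1095, 896 and 1383 in TAM_CreERT2, against 703 and 656 in TAM WT, a log2 change of 0.81 (SE 0.24, adjusted p = 0.314). The groups of all 3 did not overlap, which adds nothing to the p by which they were picked, and none passed.

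Slc1a3, Slc7a2 and Slc12a9, which are 3 of the members called in both spleen vavCre and Spic_KO pups, can be set beside these adults. Slc1a3 had 298, 202, 193 and 250 in TAM_CreERT2, against 265 and 171 in TAM WT, a log2 change of 0.12 (SE 0.43, adjusted p = 0.956). Slc7a2 had 88.6, 95.3, 44.2 and 42.4 in TAM_CreERT2, against 132 and 42.7 in TAM WT, a log2 change of -0.25 (SE 0.61, adjusted p = 0.934). Both overlapped between genotypes. Slc12a9 had 67, 44.3, 59.3 and 52.6 in TAM_CreERT2, against 15.5 and 28.2 in TAM WT, without overlap, and its log2 change of 1.36 (SE 0.56, adjusted p = 0.585) did not pass. The difference between the pup and adult comparisons was not tested, since age, Cre and table differ together and cannot be told apart. Erythroid markers summed to 195707 to 357996 in TAM_CreERT2, against 116912 and 170143 in TAM WT, with Hba-a1 and Hba-a2 called higher. The 6 B cell markers summed to 350 to 536 in TAM_CreERT2, against 870 and 893 in TAM WT, and 0 were called. The part of both lists in the members' values was not tested.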

How the data were processed

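The authors deposited 2 tables of normalised read counts per gene (unit signal), with 12 libraries in the first and 11 in the second. STAR, edgeR and GRCm38 are named per the submitters' processing notes, without roles or versions. No header gives the unit. Divided by 1 factor per library, the deposited signal gave whole reads (within 0.1 read, up to 500 reads) for 96.6 to 100% of values, so depth is known. Members and lists were chosen with earlier results of these data known.

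A gene was tested when 2 or more libraries of its table reached a value of 1, which left 15130 genes in the first table and 16650 in the second. Group means of log2(value + 1) were fitted over all libraries of a table with limma 3.58.1 (R 4.3.3), with an intensity trend and robust moderation, and an adjusted p (Benjamini-Hochberg over all genes tested) under 0.05 was a call. Means and SDs are of the values, and log2 changes are of the log2 values. The design provided for a count test if the files held raw counts; they hold normalised values, so limma was used. On the recovered reads edgeR 4.0.16 (quasi-likelihood, TMM) called 901 genes in spleen vavCre, 1064 in marrow vavCre, 29 for the difference between them, 499 and 605 between tissues in vavCre and WT, 809 in Spic_KO and 23 in TAM_CreERT2. DESeq2 1.42.0 was also run. The test was tried on simulated data.

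Members were named by rule: in each genotype comparison up to 10 called members that rose most and 10 that fell most, where the higher group averaged 20 or more; up to 6 each way between tissues and for the difference; the 3 with the smallest p where under 3 were called; the 2 highest of each substrate group, given here as means; and all called in both vavCre comparisons. One item that the rule names is not reported here. Coordinates (1-based, GRCm38) come from GENCODE vM21. No source states stranded counting, so reads of overlapping or antisense genes cannot be separated, and close paralogs may share reads. Alternatives were other filters, pseudocounts, the compared groups alone, a replicate block, edgeR, DESeq2 and each library left out in turn.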

Additional observations from a re-analysis of the deposited data

Results flagged for a closer look

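In the group of 4 TAM_CreERT2 libraries, 55 members were checked for a library far from its 3 companions, and 3 were found, where chance alone marks about 1 in 20. Slc13a3 was at 3.85 in replicate 5, against 12.2 to 13.3 in the other 3. Slc45a4 was at 248 in replicate 2, the library with the fewest reads, against 136 to 152 in the other 3. Slc16a9 was at 312 in replicate 4, against 403 to 415 in the other 3. None of these members was called between TAM_CreERT2 and TAM WT.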

How the results depend on the processing

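Of 77 named results under 1518 alternatives, 1297 stayed on their side of the threshold, 215 lost the call, 6 gained one and 0 reversed, and 36 results kept their side under every alternative run. With the compared groups alone, 33 members were called in spleen vavCre in place of 20, 19 in marrow vavCre in place of 30 and 9 in Spic_KO in place of 14. With a replicate block, 7 were called in Spic_KO. Deviations of same-numbered libraries correlated at -0.037 to 0.064 in the first table and at 0.011 for the first Spic pair. Between the WT tissues same numbers gave 0.048, 0.016 and 0.045, and different numbers gave negative values. Neither these small correlations nor the labels settle whether the numbers pair libraries. The block gave 18 in spleen vavCre, 26 in marrow vavCre, 0 for the difference, and 9 and 6 between tissues in vavCre and WT. No paired analysis was possible for TAM because its groups share 1 number. DESeq2 called 4 for the difference, 20 and 10 between tissues in vavCre and WT, 25 in Spic_KO and 4 in TAM_CreERT2, where it moved the median of all genes by 0.10 on the log2 scale. Leaving out 1 library gave 15 to 22 in spleen vavCre, 18 to 29 in marrow vavCre, 0 to 0 for the difference and for TAM, 4 to 10 and 3 to 8 between tissues in vavCre and WT, and 4 to 25 in Spic_KO. Other filters and pseudocounts and edgeR kept every count within 1.5 times. With 60.03% as the median spread of members under a mean of 100, depth limits what can be called among low members.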

Other observations

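Some members lie next to each other on a chromosome: 9 pairs of neighbouring members are less than 100 kb apart. Slc43a1 and Slc43a3, 73.0 kb apart on chromosome 2, both fell in the 2 vavCre comparisons, whereas their family member Slc43a2, on chromosome 11, rose. Slc22a5, Slc22a21 and Slc22a4 form a run on chromosome 11, with 58.3 kb and 2.79 kb between them. In it Slc22a4 fell in spleen vavCre (log2 change -2.95) and Slc22a5 had 0.79 there, without a call, while in marrow vavCre Slc22a5 rose (1.22) and Slc22a4 had -0.36, without a call. The copper genes Slc31a2 and Slc31a1 lie 62.3 kb apart on chromosome 4. Slc31a2 rose in marrow vavCre (1.04), where Slc31a1 had 0.68 without a call, and in Spic_KO Slc31a1 fell (-3.46), where Slc31a2 had -1.43 without a call.

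By summed level, amino acid and peptide carriers made up 0.252 to 0.271% of all signal in spleen vavCre, against 0.309 to 0.325% in spleen WT, without overlap, and 0.281 to 0.314% in marrow vavCre, against 0.306 to 0.344% in marrow WT, with overlap. Mitochondrial carriers made up 0.280 to 0.314% in spleen vavCre, against 0.324 to 0.342% in spleen WT, although 1 of their 38 members was called there. In the marrow they made up 0.275 to 0.302% in vavCre and 0.301 to 0.319% in WT, with overlap. Metal carriers made up 0.123 to 0.141% in marrow vavCre, against 0.0995 to 0.122% in marrow WT, and overlapped in the spleen. Nucleoside carriers were lower in vavCre without overlap in both tissues. They made up 0.0727 to 0.0811% in spleen vavCre, against 0.0818 to 0.0993% in spleen WT. In the marrow it was 0.0765 to 0.0893% in vavCre, against 0.0907 to 0.0988% in WT. The unassigned members were lower in spleen vavCre and overlapped in the marrow. The other groups overlapped in both tissues. These shares were not tested.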
